A study of Mus musculus with 12 samples.

Results

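*Agr2* and 9 genes that serve or specify mucus-secreting epithelium were followed in subcutaneous tumors of mTC11, an established mouse lung cancer cell line. The set was chosen by function, with earlier results of these data known, and not by a threshold on a measured value. It holds the mucus-cell protein folding genes *Agr2* and *Ern2*, the secretory transcription factors *Spdef*, *Creb3l1*, *Creb3l4* and *Xbp1*, and the mucosal transcription factors *Ehf*, *Elf3*, *Klf4* and *Klf5*. All 10 were in the table of 15687 genes. RNA was measured in 6 CTL tumors, from cells with a control short hairpin RNA (shRNA), and in 6 *Filip1l*-knockdown tumors, from cells with an shRNA against *Filip1l*. Each host was an 8-week-old male C57BL6/J mouse injected under the skin with 1000000 cells in Matrigel, and tumors were taken on day 24. Per the methods of the study, each line is a puromycin-selected mixture of clones made by lentiviral transduction, whose make-up is not given, and 2 *Filip1l* targets were used in this cell line. Which target the sequenced tumors carried is not given in the sources used here. The titles call the tumors of a group biological replicates, and p-values measure the spread between these tumors. The cells were transduced before injection, so an effect of the knockdown and other differences between the transduced lines cannot be told apart.

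Mucus is made by secretory epithelial cells, such as goblet cells, that fold very large mucin chains in the endoplasmic reticulum (ER) before packing them into granules. AGR2 is a protein disulfide isomerase that assists this folding, and ERN2 (IRE1β) is a sensor of misfolded protein found in mucus-secreting epithelia, while XBP1 and factors of the CREB3 family raise the capacity of the secretory pathway. SPDEF drives the differentiation of goblet cells, EHF and ELF3 are related ETS factors of epithelia, and KLF4 and KLF5 are zinc finger factors of mature and of dividing mucosal cells.

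The depth was 17834745 to 29502069 reads on listed genes in CTL tumors and 25460564 to 32419578 in knockdown tumors. The lowest of these was CTL replicate 5, and 3 reads there equal 4.48 normalized counts. Normalized counts are reads per gene divided by the size factor of the tumor, and they compare 1 gene between tumors. *Filip1l*, the targeted gene, had 2311 ± 211 normalized counts across CTL tumors and 1924 ± 165 in knockdown tumors (± SD, 6 tumors each), which limma fitted as a log2 fold change of -0.26 (SE, the standard error, 0.07, adjusted p = 0.00998). All 6 knockdown tumors lay below the CTL median, and the groups overlapped. The study also reports less FILIP1L protein by tissue staining in knockdown tumors of this cell line, and protein was not measured here. The tumors are labelled as lung cancer cells. Surfactant protein gene *Sftpc* was at or under the floor of 3 reads in 5 of 6 CTL tumors and 2 of 6 knockdown tumors, with a highest value of 53.0 and 60.5 normalized counts, and the lung factor gene *Nkx2-1* had 17.2 ± 14.3 normalized counts across CTL tumors and 39.4 ± 40.9 in knockdown tumors (± SD, 6 tumors each). *Sftpd*, another surfactant protein gene, had 1737 ± 712 and 2068 ± 523 normalized counts. Of the 7 lung epithelium genes measured, 1 was called higher, the surfactant gene *Sftpb* (29.7 ± 33.0 and 304 ± 345, log2 fold change 2.80, limma adjusted p = 0.0463), and 1 lower, the ciliated cell factor gene *Foxj1*. The club cell genes *Scgb1a1* and *Scgb3a2* were not analysed here.

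The promoters of 4 of these genes are shown because *Agr2* and *Elf3* passed both thresholds while *Spdef* and *Xbp1*, factors that act on secretory genes, did not. Each is the stretch from 250 bases before the RefSeq start of the gene (assembly GRCm38.p6), read in the direction of the gene and cut where a GENCODE gene model begins. Capitals mark matches on either strand to the ETS core GGAAG, the KLF box CCACCC or the core TGACGTG, a sequence bound by XBP1 and CREB3 factors. *Agr2*, chr12:35992675-35992906, + strand, *Spdef*, chr17:27728956-27729201, - strand, *Xbp1*, chr11:5520391-5520640, + strand, and *Elf3*, chr1:135258569-135258722, - strand, read as follows.
Agr2: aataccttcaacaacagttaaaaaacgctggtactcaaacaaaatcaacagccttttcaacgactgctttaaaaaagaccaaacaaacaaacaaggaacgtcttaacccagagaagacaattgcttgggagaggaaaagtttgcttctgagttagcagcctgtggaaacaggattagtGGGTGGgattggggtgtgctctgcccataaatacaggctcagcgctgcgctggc
Spdef: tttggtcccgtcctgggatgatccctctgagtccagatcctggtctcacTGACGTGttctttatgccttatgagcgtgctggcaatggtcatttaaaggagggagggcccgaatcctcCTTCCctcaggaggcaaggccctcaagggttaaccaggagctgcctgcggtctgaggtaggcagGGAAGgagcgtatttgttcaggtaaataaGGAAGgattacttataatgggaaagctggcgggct
Xbp1: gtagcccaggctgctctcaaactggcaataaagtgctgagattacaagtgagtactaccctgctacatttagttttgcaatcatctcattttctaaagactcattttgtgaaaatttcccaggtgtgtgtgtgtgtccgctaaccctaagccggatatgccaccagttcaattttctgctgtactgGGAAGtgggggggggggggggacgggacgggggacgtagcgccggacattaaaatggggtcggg
Elf3: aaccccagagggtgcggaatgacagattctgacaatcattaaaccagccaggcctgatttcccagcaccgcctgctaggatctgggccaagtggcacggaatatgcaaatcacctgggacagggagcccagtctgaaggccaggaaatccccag
In the *Agr2* stretch the 1 match was a KLF box, 72 bases before the start on the opposite strand. *Spdef* held the TGACGTG core at 201 bases before its start and 3 ETS cores, at 132, 68 and 39 bases before it. *Xbp1* held 1 ETS core, at 64 bases before the start, and the printed *Elf3* stretch held no match, since its KLF box, 7 bases before the RefSeq start, lies inside the GENCODE gene model. Among 32851 RefSeq promoters of the same length, 64.1% held the ETS core, 28.1% the KLF box, 12.4% a TATA box (TATAAA), 1.65% TGACGTG and 0.113% the ER stress element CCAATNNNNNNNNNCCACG. The ER stress element and TATAAA had no match in the 250 bases of the 6 genes with an entry, which include *Klf4* and *Creb3l4*. These matches are a description of letters and do not show binding.

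*Agr2*, *Elf3*, *Klf5*, *Ehf* and *Klf4* rose in knockdown tumors, in that order of size, while *Ern2*, *Spdef*, *Creb3l1*, *Creb3l4* and *Xbp1* did not pass the test. *Agr2* and *Elf3* passed both thresholds, 0.05 for the adjusted p and 1 for the size of the log2 fold change, and are termed called. That is 2 of 10, both higher, where 10.2% of all genes were called and 6.2% were called higher. At an adjusted p under 0.05 alone, 5 of 10 passed, all higher, against 41.9% of all genes and 21.1% of all genes in that direction. In the same 5 genes the groups did not overlap, as was true of 21.5% of all genes. The median log2 fold change of the 10 genes was 0.62, and that of all genes was 0.01. The name of a goblet-like transcription program holds for these tumors in part at most. None of the secretory factors *Spdef*, *Creb3l1*, *Creb3l4* and *Xbp1* passed, so the genes are described here one by one. The tumors are bulk tissue, in which more cells of a type and more RNA per cell cannot be told apart.

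**Figure D1:**
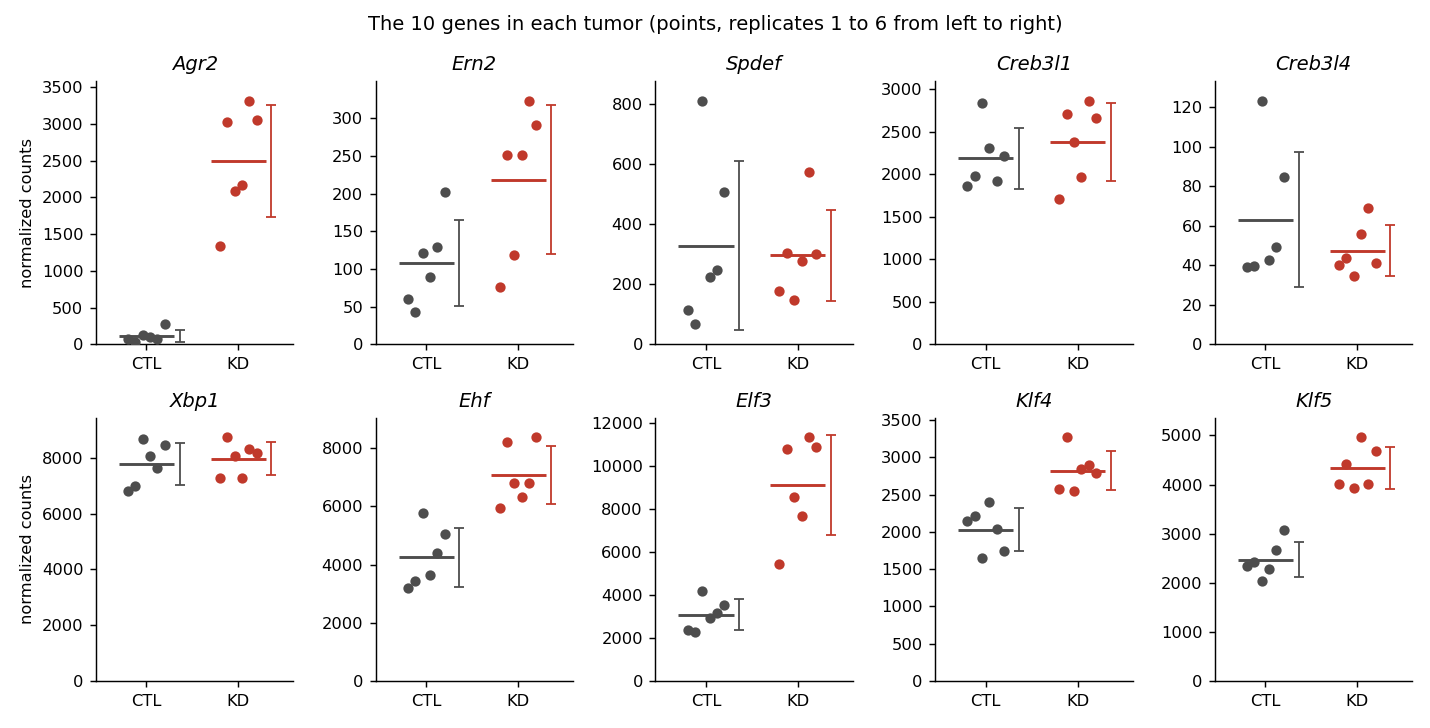
Normalized counts of the 10 genes (y axis, linear, from 0) in 6 CTL (grey) and 6 *Filip1l*-knockdown (red) tumors. Points are tumors in replicate order, lines are means and bars are SD. *Agr2*, *Ehf*, *Elf3*, *Klf4* and *Klf5* have no overlap between groups, and the other 5 overlap.

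*Agr2* (ENSMUSG00000020581) lies on the + strand at chr12:35992907-36004087 (GRCm38) and has 5 exons in its longest transcript. The 6 CTL tumors had 69.0, 25.6, 124, 97.7, 76.2 and 272 normalized counts. The 6 *Filip1l*-knockdown tumors had 1342, 3035, 2084, 2167, 3321 and 3059.8. The highest CTL tumor, replicate 6, was thus below the lowest knockdown tumor, replicate 1, by a wide margin, and the spread among CTL tumors on a ratio scale was larger than that among knockdown tumors. The log2 fold change was 4.75 (SE 0.42, limma adjusted p = 1.25e-06, exact permutation p = 0.00216, the smallest that 924 arrangements can give). Only 32 of the 15687 genes (0.204%) had a larger one.

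AGR2 belongs to the protein disulfide isomerase (PDI) family, which forms and rearranges disulfide bonds in the ER. Of 19 listed family genes 16 were in the table, and *Agr2* was the 1 called, against 0 called lower. At an adjusted p under 0.05 alone 6 were higher and 3 lower, with a median log2 fold change of 0.13. *P4hb*, the founding PDI, went from 31989.9 ± 2311 to 44480.4 ± 6591 normalized counts (± SD, 6 tumors each), a log2 fold change of 0.46 (limma adjusted p = 0.0016). *Txndc12*, the closest relative of *Agr2* in the table, had 1583 ± 100.2 and 1673 ± 185 normalized counts, a log2 fold change of 0.07 (limma adjusted p = 0.453). *Agr3*, the neighbouring paralog, was not analysed here. Per kilobase of longest transcript, *Agr2* had 122 ± 94.1 normalized counts in CTL tumors, the lowest level of the 16 family genes, and 2758 ± 839 in knockdown tumors (± SD, 6 tumors each), the 6th highest. Its neighbours in that order were *Pdia4* (3344 ± 452 per kilobase) and *Txndc5* (2598 ± 105 per kilobase), and neither differs from *Agr2* beyond these SDs. Per kilobase of all exons it ranked 15 of 16 in CTL tumors and 6 of 16 in knockdown tumors.

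**Figure D2:**
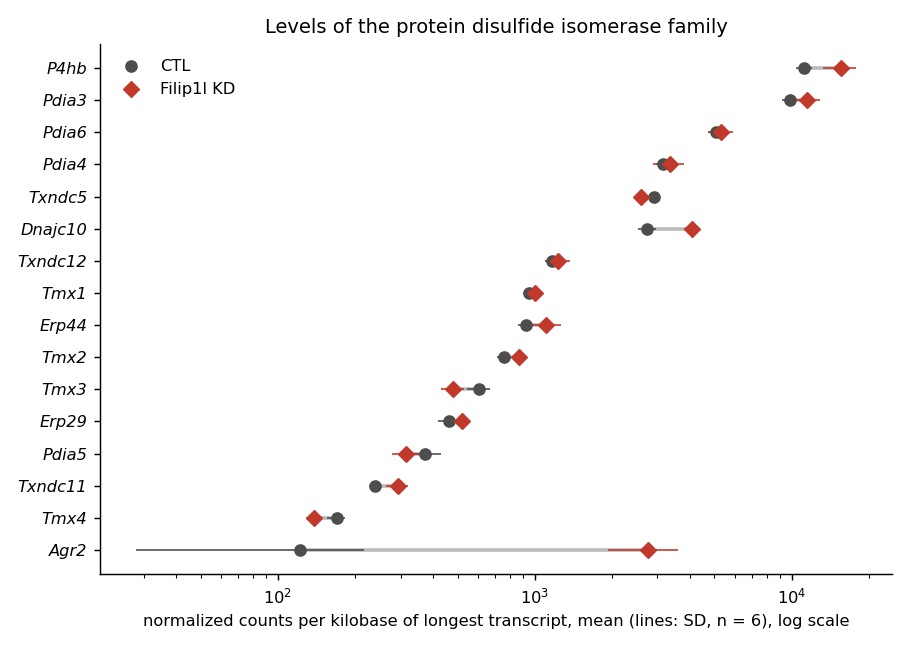
Levels of the 16 PDI family genes in the table, in normalized counts per kilobase of longest transcript (x axis, log scale), as means of 6 CTL (grey circles) and 6 *Filip1l*-knockdown tumors (red diamonds), with lines for SD. *Agr2* moves from 122 to 2758, whereas *Dnajc10*, which shifts most by ratio among the other 15, moves from 2734 to 4073.

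*Ern2* (ENSMUSG00000030866, chr7:122169893-122186207, - strand) encodes the mucosal form of the ER stress sensor IRE1. CTL tumors had a lowest value of 42.6, a median of 106 and a highest value of 202 normalized counts, and knockdown tumors had 75.6, 251 and 323. Knockdown replicates 1 and 3, at 75.6 and 119, lay within the CTL range and the other 4 above it. The log2 fold change was 1.03 (SE 0.41, limma adjusted p = 0.0568, exact permutation p = 0.0628), so the difference did not exceed the spread between tumors at the threshold. The call turned on the test and on single tumors: the adjusted p was 0.0179 with DESeq2 on whole reads, 0.0528 with edgeR, 0.0247 without CTL replicate 6, and 0.00976 and 0.0438 without knockdown replicates 1 and 3. With replicate number as a block, although the numbers do not pair the tumors, it was 0.0248. Over the 12 fits that left out 1 tumor the adjusted p of *Ern2* ran from 0.00976 to 0.126. *Ern1*, the form of IRE1 found in most cells, had 1949.6 ± 476 and 1699 ± 254 normalized counts (± SD, 6 tumors each), a log2 fold change of -0.17 (limma adjusted p = 0.384).

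*Xbp1* (ENSMUSG00000020484, chr11:5520659-5525893, + strand) encodes the factor that IRE1 activates by splicing its mRNA. Gene counts do not separate the spliced form. Its values ran from 6809 (median 7856) to 8665 normalized counts across CTL tumors and from 7269 (median 8123) to 8745 in knockdown tumors, almost the same range. The log2 fold change was 0.04 (SE 0.07, limma adjusted p = 0.699, exact permutation p = 0.602), and rescaling each tumor to the same total turned its sign, to -0.0024. Of 29 listed XBP1 target genes, which serve folding, translocation and degradation at the ER, none was called, while 11 were higher and 1 lower at an adjusted p under 0.05, with a median log2 fold change of 0.14. *Hyou1*, an ER chaperone gene, had a log2 fold change of 0.31 (limma adjusted p = 0.00158), and *Sdf2l1*, which acts with the chaperone BiP, 0.52 (limma adjusted p = 0.00769). *Syvn1*, the ubiquitin ligase of ER-associated degradation, was the 1 lower gene, at -0.31 (limma adjusted p = 0.00124). The median gene shifted between the groups by 0.38 on chromosome 14, -0.36 on chromosome 19 and -0.20 on chromosome 8. The changes of listed genes are given here without removal of these shifts. Changes of such a size, that of *Syvn1* among them, are thus not shown to be particular to the gene. Among the 8 listed sensors and factors of the unfolded protein response 0 were called, and 3 rose at an adjusted p under 0.05. *Eif2ak3*, the PERK kinase gene, went from 1036 ± 87.9 to 1477 ± 119 normalized counts (± SD, 6 tumors each; log2 fold change 0.51, limma adjusted p = 5.25e-05). *Atf4*, which acts after PERK, rose by 0.21 and *Ddit3*, its target encoding CHOP, by 0.68 on the log2 scale (limma adjusted p = 0.00249 and 0.00618). *Atf6* had a log2 fold change of 0.02 (limma adjusted p = 0.845). The genes in this paragraph other than *Xbp1*, *Ern1* and *Ern2* were picked as examples after their values were seen. Of 18 listed genes of the COPII coat, which carries cargo out of the ER, 0 were called, and 6 were higher and 2 lower at an adjusted p under 0.05. The counts of all lists at that threshold are to be read beside 41.9% of all genes, and 21.1% for the higher direction.

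CREB3 factors are held in the ER membrane and freed by proteases of the Golgi. *Creb3l1* (ENSMUSG00000027230, chr2:91982328-92024502, - strand), known from collagen-secreting and goblet cells, had a lowest value of 1867, a median of 2099.7 and a highest value of 2835 normalized counts across CTL tumors and 1710.3, 2524 and 2867 in knockdown tumors. Its log2 fold change was 0.11 (SE 0.13, limma adjusted p = 0.527, exact permutation p = 0.444). *Creb3l4* (ENSMUSG00000027938, chr3:90237500-90243512, - strand) was low, from 39.0 (median 46.1) to 123 normalized counts across CTL tumors and from 34.4 (median 42.4) to 69.2 in knockdown tumors. Its log2 fold change was -0.30 (SE 0.29, limma adjusted p = 0.440, exact permutation p = 0.370) and moved to -0.08 without CTL replicate 3, the tumor with the highest value. The other 3 family members each passed the test, in different directions. *Creb3* rose from 1586 ± 166 to 2318 ± 298 normalized counts (± SD, 6 tumors each; log2 fold change 0.54, limma adjusted p = 0.000322). In CTL tumors it was level with *Creb3l1* per kilobase of longest transcript (842 ± 88.2 and 841 ± 138 normalized counts per kilobase). Per kilobase of all exons the 2 genes had 668 ± 70.0 and 841 ± 138. *Creb3l3*, known from liver and intestine, rose from 39.5 ± 21.7 to 105 ± 35.3 and was the 1 called gene of the 7 listed, at a log2 fold change of 1.46 (limma adjusted p = 0.0015). *Creb3l2* fell from 4396 ± 232 to 3260.2 ± 289, by 0.43 on the log2 scale (limma adjusted p = 9.64e-05). *Mbtps1*, the Golgi protease, fell by 0.56 (limma adjusted p = 5.04e-06), on chromosome 8, whose median gene shifted by -0.20 between the groups.

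*Spdef* (ENSMUSG00000024215, chr17:27714352-27728955, - strand) varied more among tumors than between groups. CTL tumors ran from 67.2 (median 236) to 813 normalized counts and knockdown tumors from 147 (median 289) to 576, inside the CTL range. The mean was 328 ± 282 in CTL tumors and 297 ± 152 in knockdown tumors (± SD, 6 tumors each), and the log2 fold change, 0.19 (SE 0.52, limma adjusted p = 0.805, exact permutation p = 0.764), has the opposite sign of the difference in means. It turned to -0.02, -0.17 and -0.03 without CTL replicate 1, CTL replicate 2 or knockdown replicate 5, and to -0.14 with DESeq2 and -0.16 with edgeR on whole reads. At this spread neither a rise nor a fall of *Spdef* was detectable.

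Genes listed as goblet cell products moved in both directions, and the list includes genes of the airway and of gastric mucous cells. The 3 called lower were *Bpifb1*, *Tff2* and *Sytl2*. Of 27 listed genes 18 were in the table, and 6 were called higher and 3 lower, with a median log2 fold change of 0.67 beside 0.01 over all genes. *Guca2a*, which encodes the gut peptide guanylin, was at or under the floor of 3 reads in 4 of 6 CTL tumors, with a CTL median of 2.48 normalized counts, and had 59.7 to 255 in knockdown tumors (limma adjusted p = 4.47e-06). *Clca1*, a secreted goblet cell metalloprotease, rose from 17.3 ± 5.85 to 162 ± 115 normalized counts (± SD, 6 tumors each; log2 fold change 2.94, limma adjusted p = 2.99e-05). *Nlrp6*, an innate immune sensor of goblet cells, went the same way (3.17, limma adjusted p = 3.26e-06). *Bpifb1*, a secreted airway defence protein, fell from 254 ± 114 to 17.9 ± 9.44 normalized counts, by 3.77 on the log2 scale (limma adjusted p = 1.60e-06). Further genes of this list are named after their values were seen. The gel-forming mucin gene *Muc2* had 6.60 ± 5.85 and 44.5 ± 30.8 normalized counts (2.81 on the log2 scale, limma adjusted p = 0.00375), a low level in both groups. The airway mucin genes *Muc5ac* (81.4 ± 64.1 and 41.3 ± 38.6, log2 fold change -0.90, limma adjusted p = 0.351) and *Muc5b* (201 ± 86.1 and 263 ± 105, 0.44, limma adjusted p = 0.336) did not pass. *Fcgbp*, which encodes a mucus-associated protein, rose from 2883 ± 1655 to 9903 ± 5537 with overlapping groups (log2 fold change 1.74, limma adjusted p = 0.0188), and *Spink4* from 261 ± 177 to 599 ± 292 (1.40, limma adjusted p = 0.0215). *Tff2*, a trefoil peptide of gastric mucous cells, fell from 2887 ± 1480.4 to 416 ± 291 (limma adjusted p = 0.000358), and *Sytl2*, a granule docking gene, from 860.2 ± 146 to 377 ± 98.2 (limma adjusted p = 2.21e-05). *Tff3*, the trefoil peptide of goblet cells, had 235 ± 168 and 739 ± 528 and did not pass (log2 fold change 1.53, limma adjusted p = 0.130).

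*Elf3* and *Ehf*, which belong with *Spdef* to the ETS family, rose without overlap between groups. *Elf3* (ENSMUSG00000003051, chr1:135253575-135258568, - strand) had a lowest value of 2293, a median of 3051 and a highest value of 4207 normalized counts across CTL tumors and 5445, 9696 and 11352 in knockdown tumors. The log2 fold change was 1.55 (SE 0.19, limma adjusted p = 1.62e-05, exact permutation p = 0.00216). It shares 162 of its 2217 exon bases (7.3%) with *Gm26642* on the opposite strand. In counts made without strand, reads within these shared bases cannot be assigned to either gene. *Ehf* (ENSMUSG00000012350, chr2:103263433-103303278, - strand) ran from 3199 (median 4029) to 5762 and from 5953 (median 6818) to 8381, so CTL replicate 3, the highest, was just below knockdown replicate 1, the lowest. Its log2 fold change of 0.76 (SE 0.14, limma adjusted p = 0.000582, exact permutation p = 0.00216) was under the threshold of 1. *Elf3* had the highest level per kilobase of the 22 ETS family genes in the table, in both groups, at 1473 ± 346 and 4358 ± 1104 normalized counts per kilobase (± SD, 6 tumors each). Of these 22 genes 2 were called higher and 1 lower, and at an adjusted p under 0.05 alone 9 were higher and 6 lower. The other called genes were *Spib*, a factor of lymphoid cells and intestinal M cells (21.7 ± 12.8 and 65.2 ± 25.7 normalized counts, log2 fold change 1.62, limma adjusted p = 0.00636), and *Etv5*, a factor that acts after receptor tyrosine kinases, which fell from 1612 ± 47.8 to 780.4 ± 106 (by 1.06 on the log2 scale, limma adjusted p = 4.22e-07). *Elf5*, the fourth epithelium-specific member, was not analysed here.

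*Klf4* (ENSMUSG00000003032, chr4:55527143-55532466, - strand), which is needed for goblet cells in the colon, had a lowest value of 1647, a median of 2091 and a highest value of 2404 normalized counts across CTL tumors and 2554, 2817 and 3270.1 in knockdown tumors. The gap between the highest CTL and the lowest knockdown tumor was small beside the range of either group. The log2 fold change was 0.48 (SE 0.09, limma adjusted p = 0.000827, exact permutation p = 0.00216). *Klf5* (ENSMUSG00000005148, chr14:99298691-99315036, + strand) ran from 2036 (median 2378) to 3068 and from 3919.8 (median 4207) to 4963 normalized counts without overlap, and limma fitted a log2 fold change of 0.82 (SE 0.09, limma adjusted p = 9.32e-06, exact permutation p = 0.00216). *Klf5* lies on chromosome 14, whose median gene shifted by 0.38 between the groups, and with chromosome medians removed its log2 fold change was 0.44 (limma adjusted p = 0.00126). Of the 13 KLF family genes in the table none was called, with 4 higher and 4 lower at an adjusted p under 0.05 and a median log2 fold change of -0.07. *Klf6*, the most highly expressed KLF gene per kilobase in both groups, had 8825 ± 976 and 8373 ± 440.2 normalized counts (± SD, 6 tumors each; limma adjusted p = 0.478). *Klf9*, a glucocorticoid-induced gene, fell by 0.84 (limma adjusted p = 1.86e-05). Both were picked after their values were seen.

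Of 15 other factors of secretory and epithelial lineage in the table, 1 was called, *Ovol2*, at 5.34 ± 5.75 and 20.9 ± 6.45 normalized counts (± SD, 6 tumors each; limma adjusted p = 0.00229). At an adjusted p under 0.05 alone 2 were higher and 3 lower, with a median log2 fold change of 0.10. *Foxa1* and *Foxa2* are among these lineage factors. *Foxa2* fell from 1944 ± 218 to 1408 ± 131 normalized counts (by 0.46 on the log2 scale, limma adjusted p = 0.000395), and *Foxa1* had 2028 ± 274 and 2174 ± 297 (limma adjusted p = 0.484). *Hnf4a*, a factor of gut and liver epithelium, was abundant in both groups, at 8054 ± 482 and 8890.2 ± 969 (limma adjusted p = 0.152). These 3 were picked after their values were seen. *Atoh1*, which directs cells to the secretory lineage in the gut, was not analysed here.

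**Figure D3:**
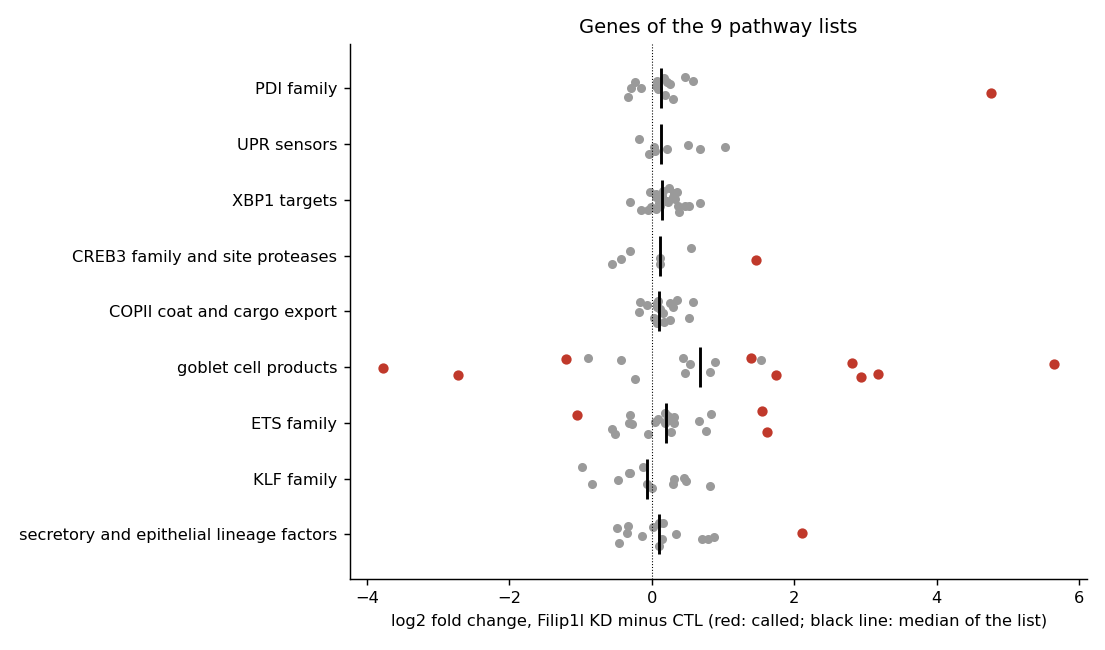
Log2 fold change (x axis, *Filip1l*-knockdown minus CTL) of each gene in 9 functional lists (y axis), with called genes in red and the median of the list as a black line. Goblet cell products spread from -3.77 to 5.64, and in the ER and export lists *Agr2* and *Creb3l3* are the called genes.

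Markers of simple epithelium moved with the same groups. Of the 10 markers 7 were called higher and 0 lower, with a median log2 fold change of 1.26, and their summed level ran from 149961 to 196899 normalized counts across CTL tumors and from 219842 to 401278 in knockdown tumors. They did not move alike. *Cldn3*, a tight junction gene, rose by 3.76 and *Epcam*, an epithelial adhesion gene, by 1.51 on the log2 scale, *Krt18*, a keratin gene, by 0.44 (limma adjusted p = 9.55e-08, 5.79e-06 and 0.0122), and *Cdh1*, which encodes E-cadherin, had 28492 ± 2707 and 28678 ± 2877 normalized counts (± SD, 6 tumors each; log2 fold change 0.01, limma adjusted p = 0.950). On a scale set by the mean log2 level of the 10 markers in each tumor, the median of all genes moved to -1.37 and 12680 genes were called, so values on it are read against that median. *Agr2* was still higher, by 3.38 (SE 0.38, limma adjusted p = 1.10e-07), whereas *Elf3* had 0.18 (limma adjusted p = 0.312) and *Ern2* -0.35 (limma adjusted p = 0.353). *Klf5* had -0.56, *Ehf* -0.62 and *Klf4* -0.89 on that scale, and *Spdef*, *Creb3l1*, *Xbp1* and *Creb3l4* had -1.19, -1.26, -1.34 and -1.68. Against 0 on this scale, *Elf3* did not differ detectably between the groups, and *Ehf*, *Klf4* and *Klf5* were lower. Against the median of all genes, *Elf3*, *Ehf*, *Klf4* and *Klf5* all lay higher. In that order, 15094, 14166, 13213 and 14282 of 15687 genes lay below them. The scale moves the log2 fold change of every gene by the same amount. This order is therefore the one by size factors and adds nothing to it. The part of the amount of epithelium in the rises by size factors was not tested.

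**Figure D4:**
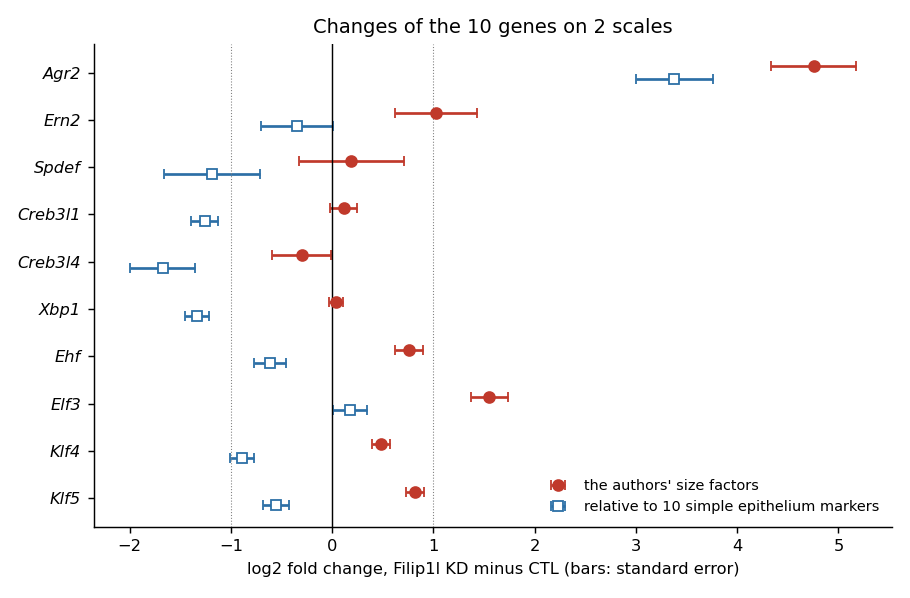
Log2 fold change of the 10 genes (x axis, *Filip1l*-knockdown minus CTL, bars for standard error) by size factors (red circles) and relative to 10 simple epithelium markers (blue open squares). *Agr2* is above 1 on both scales, while *Elf3* moves from 1.55 to 0.18 and *Klf4* from 0.48 to -0.89.

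Markers of other tissues also moved with the groups. Skeletal muscle markers were called higher in 9 of 10, from a summed 2760 to 13989 normalized counts in CTL tumors to a range of 5732 to 103140 in knockdown tumors, and neutrophil markers in 5 of 7, from a range of 372 to 524 to one of 905 to 1494. Fibroblast markers had 0 called of 10, with 3 lower at an adjusted p under 0.05 and summed ranges of 172163 to 287927 and 81127 to 265183. *Jchain* and *Mzb1*, defining genes of plasma cells, which also use *Xbp1* for secretion, had 174 ± 88.3 and 317 ± 212 normalized counts and 15.99 ± 11.7 and 33.5 ± 25.8 (± SD, 6 tumors each), and neither passed the test (limma adjusted p = 0.382 and 0.225). Of the 7 B and plasma cell genes measured, 1 was called, *Ighm*, an immunoglobulin heavy chain gene, at 254 ± 159 and 808 ± 495 normalized counts with overlapping groups (log2 fold change 1.602, limma adjusted p = 0.0394). Adipocyte markers were called higher in 3 of 6, with summed ranges of 452 to 779 and 964 to 1824, and of 9 endothelial markers 0 were called and 7 were higher at an adjusted p under 0.05. The part of these tissues in the values of the 10 genes was not tested.

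The 10 genes also varied among tumors of 1 group, and much of that spread was shared by the genes other than *Klf4* and *Klf5*. With group means removed, Pearson's r of *Klf4* with the other genes ran from -0.60 (*Creb3l4*) to 0.04 (*Klf5*). That of *Klf5* ran from -0.25 (*Creb3l1*) to 0.49 (*Ern2*). Knockdown replicate 1 was among the 2 lowest knockdown tumors for 10 of 10 genes, and knockdown replicate 5 was among the 2 highest for 8. In the CTL group, replicates 3 and 6 were among the 2 highest for 7 and 8 genes, and replicates 1 and 2 among the 2 lowest for 8 and 7. Knockdown replicate 1 also had the lowest summed simple epithelium markers of its group (219842 normalized counts) and the highest macrophage markers (65724, against 24368 to 37181 in the other 5) and fibroblast markers (265183). Without it the log2 fold change was 4.92 for *Agr2*, 1.69 for *Elf3* and 1.30 for *Ern2*.

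**Figure D5:**
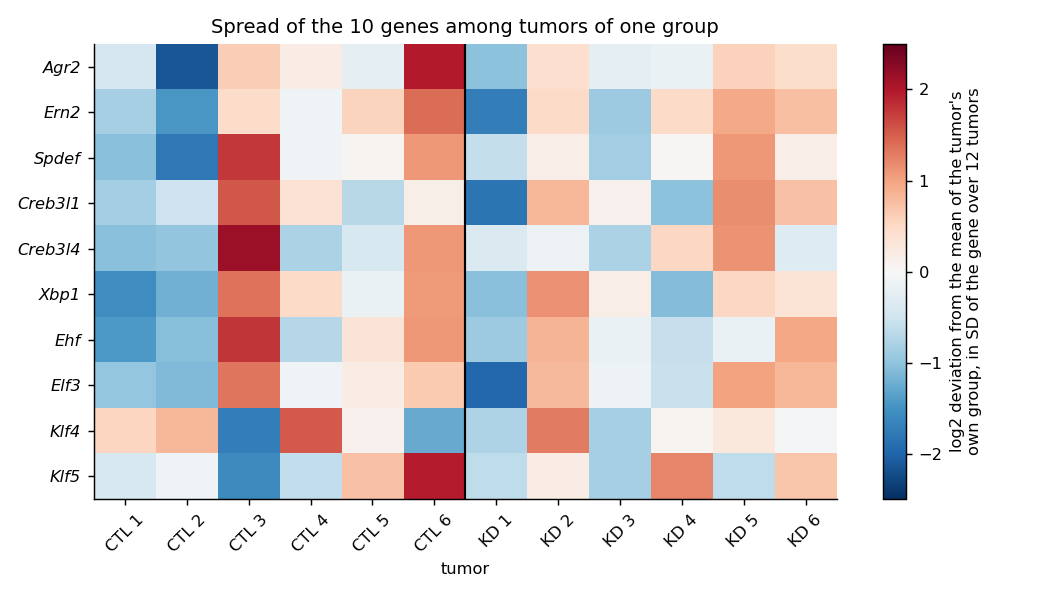
Log2 deviation of each tumor (x axis) from the mean of its own group for the 10 genes (y axis; red higher, blue lower). The unit is the SD of these deviations of the gene over 12 tumors. CTL replicates 1 and 2 and knockdown replicate 1 are low for most genes, and *Klf4* in CTL replicates 3 and 6 is low where most of the other genes are high.

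Within groups, *Agr2* was set against each of the other 9 genes. Pearson's r of *Agr2* with *Ern2* was 0.91 in the 6 CTL tumors (exact permutation p = 0.0181, Spearman's rho 0.83, exact permutation p = 0.0583) and 0.92 in the 6 *Filip1l*-knockdown tumors (exact permutation p = 0.0028, rho 0.94, exact permutation p = 0.0167). Leaving out the 2 tumors farthest from the *Agr2* median, r was 0.53 and 0.695, over 4 tumors. With *Elf3*, r was 0.76 in CTL tumors (exact permutation p = 0.0778) and 0.99 in knockdown tumors (exact permutation p = 0.0083). Of 18 such relations over both groups 5 had an exact permutation p under 0.05 and 0 an adjusted p under 0.05, the lowest being 0.05 for *Ern2* in knockdown tumors. The sign was positive in 8 of 9 relations in CTL tumors and 9 of 9 in knockdown tumors. *Klf4* was the exception, with r = -0.62 in CTL tumors (exact permutation p = 0.188) and 0.70 in knockdown tumors (exact permutation p = 0.119). These tumors share library preparation and differ in their summed epithelial markers. Differences between tumors and control of 1 gene by another thus cannot be told apart in these relations.

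Over all 12 tumors, with group means removed, the 5 genes most like *Agr2* among the 12887 genes whose mean reached 50 normalized counts were *F8a* and *Tfcp2l1* (r = 0.93 each), *Fbp2* (0.91), *Bace2* (0.91) and *Kcne3* (0.90). These r values are the highest of many and carry no test. The measure does not use the difference between groups. *Tfcp2l1*, an epithelial transcription factor gene, rose from 562 ± 158 to 2316 ± 402 normalized counts (± SD, 6 tumors each), a log2 fold change of 2.08 (limma adjusted p = 2.00e-06). *Kcne3*, a potassium channel subunit gene of secretory epithelium, *Fbp2*, a gluconeogenic enzyme gene, and *Bace2*, a membrane protease gene, rose by 1.52, 1.75 and 1.53 on the log2 scale (limma adjusted p = 4.69e-05, 5.76e-05 and 6.69e-05). *F8a* had 293 ± 47.9 and 355 ± 33.0 normalized counts and did not pass the test (limma adjusted p = 0.0539).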

How the data were processed

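RNA from 12 tumors was sequenced by the authors as paired reads from poly(A) libraries that, by kit name, do not mark strand. Per the submitters' processing notes and the methods of the study, Trimmomatic 0.36 trimmed the reads, STAR 2.5.2b placed them on the mouse genome (mm10), and they were counted per gene with featureCounts of Subread 1.5.2, keeping unique hits. The authors tested counts with DESeq2 and divided them by its size factors, and the deposited values are this normalized signal, in normalized counts.

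Groups came from the sample titles, and 0 columns were left unmapped. Symbols, positions and lengths were taken from GENCODE vM21, which held 15661 of 15687 identifiers (99.8%), and promoters from RefSeq, which held 6 of the 10 genes. Each value was used as log2(normalized count + 1), a scale that understates the change of low genes. Genes with a mean under 5 would have been dropped, and 0 were. Groups were compared across all genes by limma 3.58.1 (R 4.3.3) using a mean-variance trend and p-values adjusted by Benjamini-Hochberg, and genes are termed called where the adjusted p was under 0.05 and the size of the log2 fold change over 1. Exact permutation tests were two-sided. The fit was tested on simulated data.

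All values (100%) were within 0.01 of whole multiples of the value of 1 read, although in 3 tumors that value lies within 1% of 1. The whole reads served DESeq2 1.42.0 and edgeR 4.0.16 as alternatives. Floors of 3 reads cover counting error only, since reads carry no molecular identifiers. Further settings tried were a pseudocount of 0.5 or of 8, a minimum mean of 20 or none, equal 75th percentiles or equal totals, values relative to simple epithelium markers, chromosome medians removed, no trend, replicate number as a block, and leaving out each tumor.

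Genes named are the 10, *Filip1l*, up to 4 called genes per pathway list whose mean reached 50 normalized counts, close relatives of the 10, the 5 genes most like *Agr2*, and defining markers of lists that moved. The exceptions are stated, and *P4hb*, *Spib*, *Ovol2*, *Sftpb*, *Sftpd*, *Foxj1*, *Ighm*, *Mbtps1*, *Pdia4*, *Txndc5* and *Dnajc10* were also named after their values were seen. The genes and lists were chosen with earlier results of these data known. Figures were drawn with matplotlib 3.10.9. Protein sequences, splicing of *Xbp1* and genes outside the table were not analysed here.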

Additional observations from a re-analysis of the deposited data

Results flagged for a closer look

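Single tumors that stood apart were looked for in 82 groups of 6 tumors, 41 named genes in each group, by the gap of the highest or lowest tumor to its nearest neighbour as a share of the range of the group. Chance flags about 1 in 20 groups, and 4 were found. *Spdef* in knockdown replicate 5 had 576 normalized counts, above the other 5 knockdown tumors (at most 304), and without it the log2 fold change turned from 0.19 to -0.03. *Clca1* in knockdown replicate 2 had 382 normalized counts in a group with a median of 138. *Creb3l2* in CTL replicate 3 had 3951 normalized counts, the lowest CTL value, against a CTL median of 4487. *Sftpc* in CTL replicate 1 had 53.0 normalized counts where the other 5 CTL tumors were at or under the floor of 3 reads.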

How the results depend on the processing

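*Agr2*, *Elf3*, *Ehf*, *Klf4* and *Klf5* kept their direction and side of the adjusted p in all settings apart from the epithelium-relative scale, on which *Agr2* alone of these 5 kept both. With all tumors kept, the other settings gave 4.46 to 4.76 for *Agr2* and 1352 to 1652 genes called in all. Leaving out 1 tumor gave 4.41 to 5.08 for *Agr2*, 0.80 to 1.30 for *Ern2*, -0.17 to 0.54 for *Spdef* and 1513 to 1713 genes called.

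Relative to simple epithelium markers, a scale that shifts the median of all genes by its construction, 12680 genes, 5 of the 10 genes at both thresholds and 8 at the adjusted p alone were called, and log2 fold changes were -0.35 for *Ern2*, -1.19 for *Spdef*, -1.26 for *Creb3l1*, -1.68 for *Creb3l4*, -1.34 for *Xbp1*, -0.62 for *Ehf*, 0.18 for *Elf3*, -0.89 for *Klf4* and -0.56 for *Klf5*. *Ern2* passed with DESeq2 (1.03, adjusted p = 0.0179), and *Spdef* turned to -0.14 with DESeq2 and -0.16 with edgeR. *Xbp1* turned to -0.0024 when rescaled to the same total. Rescaled to the 75th percentile, 3 of the 18 relations of *Agr2* had an adjusted p under 0.05, against 0. *Cdh1*, near 0 throughout, had -0.0034 at the 75th percentile and -0.0334 at the same total, -0.0028 with edgeR, and -0.02 to 0.0625 with 1 tumor left out. The cause was not tested in these cases.

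Replicate numbers come from the titles, and the deviations of tumors that share a number had correlations of -0.28 to 0.08, so the numbers do not pair the tumors. With the replicate block, *Ern2* kept its log2 fold change of 1.03 and passed (adjusted p = 0.0248), 1554 genes were called, and no other of the 10 genes changed its side of the threshold. Genes near the floor, such as *Guca2a* and *Sftpc* in CTL tumors, are limited by depth.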
